A study of Mus musculus with 32 samples.

Results

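The interferon-inducible GTPases examined here are 10 genes of the guanylate-binding protein (GBP) and immunity-related GTPase (IRG) families. The GBPs were Gbp2, Gbp3, Gbp4 and Gbp6, and the IRGs were Irgm1, Irgm2, Igtp, Iigp1, Ifi47 and Tgtp1. They were chosen by gene name in the array annotation and make up 10 of the 15287 genes that were tested. These genes were measured with Agilent 1-colour arrays in bone marrow-derived macrophages (BMDMs), which are primary macrophages grown from mouse marrow with M-CSF. The marrow came from WT mice and from Ifnar1-/- mice, and the labels give the strain C57BL/6 for both. In Ifnar1-/- mice the gene for IFNAR1, 1 chain of the receptor for IFNα and IFNβ, is disrupted. Cells of each genotype were left untreated or received zVAD, or were given either LPS or IFNβ by itself, with zVAD, or with zVAD and Nec-1 together, and RNA was taken after 6 h. LPS is a bacterial ligand of TLR4, zVAD inhibits caspases, and Nec-1 (necrostatin-1) inhibits the kinase RipK1. Per the labels 100 ng/mL of LPS was used, and 1000 U/mL of IFNβ, but the sources differ on doses. The 2 genotypes and 8 treatments form 16 groups of 2 arrays, 32 arrays in all, and nothing states that the 2 arrays of a group came from separate mice or cultures, so the p-values measure only the spread between these arrays.

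GBPs and IRGs are GTPases that are induced by interferons and defend cells against bacteria and parasites that live in vacuoles. GBPs are recruited to pathogen vacuoles and to cytosolic bacteria, where they bind LPS and help to activate caspase-11. Within the IRGs, Irgm1, Irgm2 and Igtp (also called Irgm3) are regulatory members that sit on host membranes and restrain the effector members Iigp1 (Irga6), Ifi47 (Irgd) and Tgtp1 (Irgb6), which load onto the vacuoles of parasites such as Toxoplasma. Type I interferon acts through the receptor chain IFNAR1 and induces genes that carry an interferon-stimulated response element (ISRE), whereas IFNγ has a receptor of its own and induces genes that carry a gamma-activated site (GAS).

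RefSeq promoter windows of 250 bases before to 50 bases after the transcription start (GRCm38.p6) were matched for 7 of the 10 genes. Gbp4, Gbp6 and Iigp1 had no entry in the promoter table. An ISRE core, GAAANNGAA on either strand, was found in 6 of these 7 genes, where 8.56% of all 32851 windows hold it. A GAS core, TTCNNNGAA, which reads the same on both strands, was found in 3 of 7 genes, where 9.55% of all genes and 8.30% of all windows hold it. The 100 bases before the start are shown for the 6 genes with an ISRE core, 5′ to 3′ on the strand of the gene, with every base that belongs to a core in capitals:
Igtp (chr11:58199456-58199555, plus strand): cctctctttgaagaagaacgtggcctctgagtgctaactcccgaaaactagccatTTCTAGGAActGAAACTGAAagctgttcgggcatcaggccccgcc
Irgm2 (chr11:58214877-58214976, plus strand): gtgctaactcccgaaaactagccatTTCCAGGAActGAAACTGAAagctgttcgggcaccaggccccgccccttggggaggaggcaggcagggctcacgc
Tgtp1 (chr11:48992247-48992346, minus strand): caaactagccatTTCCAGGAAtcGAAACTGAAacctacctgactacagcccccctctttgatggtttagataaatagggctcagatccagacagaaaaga
Irgm1 (chr11:48871421-48871520, minus strand): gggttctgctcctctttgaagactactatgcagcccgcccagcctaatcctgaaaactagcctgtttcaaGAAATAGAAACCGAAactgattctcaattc
Gbp2 (chr3:142620563-142620662, plus strand): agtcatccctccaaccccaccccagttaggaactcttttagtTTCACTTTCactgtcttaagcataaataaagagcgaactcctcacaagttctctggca
Gbp3 (chr3:142559944-142560043, plus strand): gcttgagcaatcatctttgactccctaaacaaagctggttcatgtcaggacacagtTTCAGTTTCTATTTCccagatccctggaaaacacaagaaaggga

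In Igtp, Irgm2 and Tgtp1 a GAS core was followed by an ISRE core in the same orientation, and the first bases of the 2 cores were 11 bases apart in each gene. This arrangement, read on either strand, was present in 8 of the 32851 windows (0.0244%). The spacing counted is the one seen in Igtp, Irgm2 and Tgtp1, and their own windows are among the 8. The bases around the cores are also nearly the same in Igtp and Irgm2. Tgtp1 shares with both the bases directly before the GAS core, aaactagccat. The share is therefore a description of the windows and no independent test of how rare the arrangement is. Counted from the start, the GAS core began at base -45 in Igtp, -75 in Irgm2 and -88 in Tgtp1. In Gbp2 the single ISRE core lay on the opposite strand and began at base -58. Gbp3, at the upstream of its 2 annotated starts, held 2 overlapping ISRE cores on the opposite strand, beginning at bases -44 and -38, and Irgm1 held 2 overlapping cores on its own strand at bases -30 and -24. The window of Ifi47 contained neither core as spelled here, which says only that these letters are not in the window. A match to a core is a description of the sequence and no measurement of binding.

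**Figure D1:**
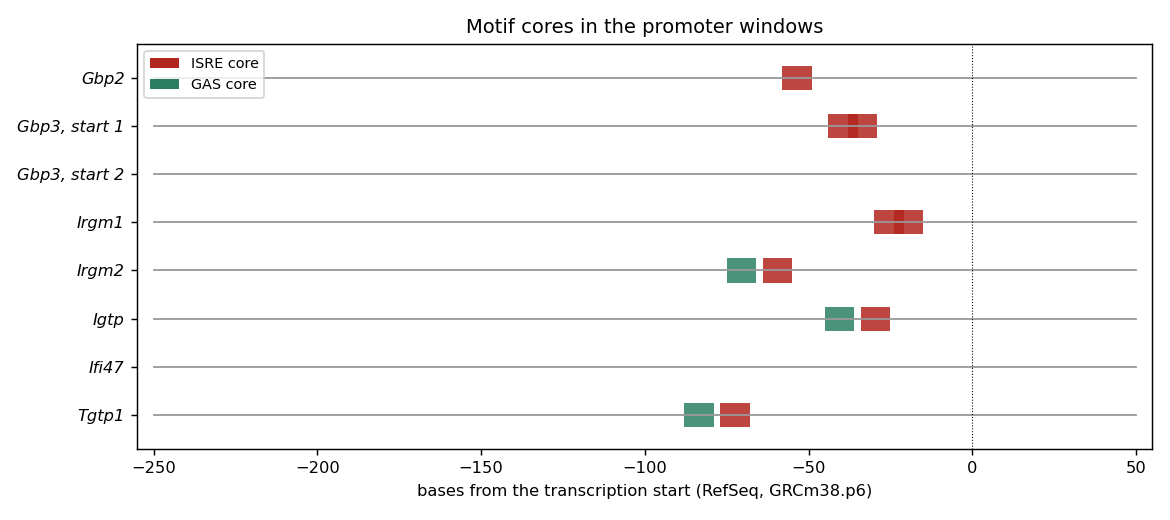
Positions of the ISRE core (red) and the GAS core (green) in the RefSeq promoter windows of 7 GTPase genes. The x axis gives bases from the transcription start, and each grey line is 1 window of 250 bases before to 50 bases after the start. The GAS and ISRE cores stand next to each other in Irgm2, Igtp and Tgtp1, and both Ifi47 and the downstream start of Gbp3 have no core.

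The values given below are log2 signals after quantile normalization, and a difference of 1 is 2-fold. Because probes differ in how brightly they hybridize, levels are compared between groups for 1 gene and never between genes. The software called 54.9% to 78.1% of the probes well above background on the WT arrays and 44.5% to 61.6% on the Ifnar1-/- arrays. All 9 macrophage markers measured, among them Csf1r, were above background on all 32 arrays. The Ifnar1 probe ranged from 9.02 to 14.76 (median 13.21) on the 16 WT arrays and from 11.16 to 12.44 (median 11.79) on the 16 Ifnar1-/- arrays. The groups overlap, and whether this probe lies within the disrupted part of the gene is not given in the sources used here, so it is no check of the labels. The arrays lie on 4 slides, each of which carries the 8 treatments of 1 genotype and 1 replicate number. Genotype and slide therefore cannot be told apart in a comparison of WT with Ifnar1-/- levels, whereas each response to a treatment is measured inside its slides, as is the contrast of 2 responses.

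Libraries of 2 groups stood apart from their partners in these genes. In the Ifnar1-/- LPS+zVAD+Nec-1 group, Gbp2 was at 16.52 on replicate 1 and at 10.50 on replicate 2, and Gbp3 was at 15.10 and 10.22. The library labelled replicate 2 was therefore at the level of untreated Ifnar1-/- cells in both genes, and over the 1000 most variable genes its correlation was 0.984 with the Ifnar1-/- IFNβ+zVAD+Nec-1 group and 0.669 with its own partner. This pair sets most of the standard error of Gbp2 (1.05) and Gbp3 (0.86) in every comparison, because limma pools the spread of the 16 groups. In the WT zVAD group the 10 genes were all higher on replicate 2 than on replicate 1, by a median of 1.36 log2. Results that rest on these arrays are given with and without them.

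**Figure D2:**
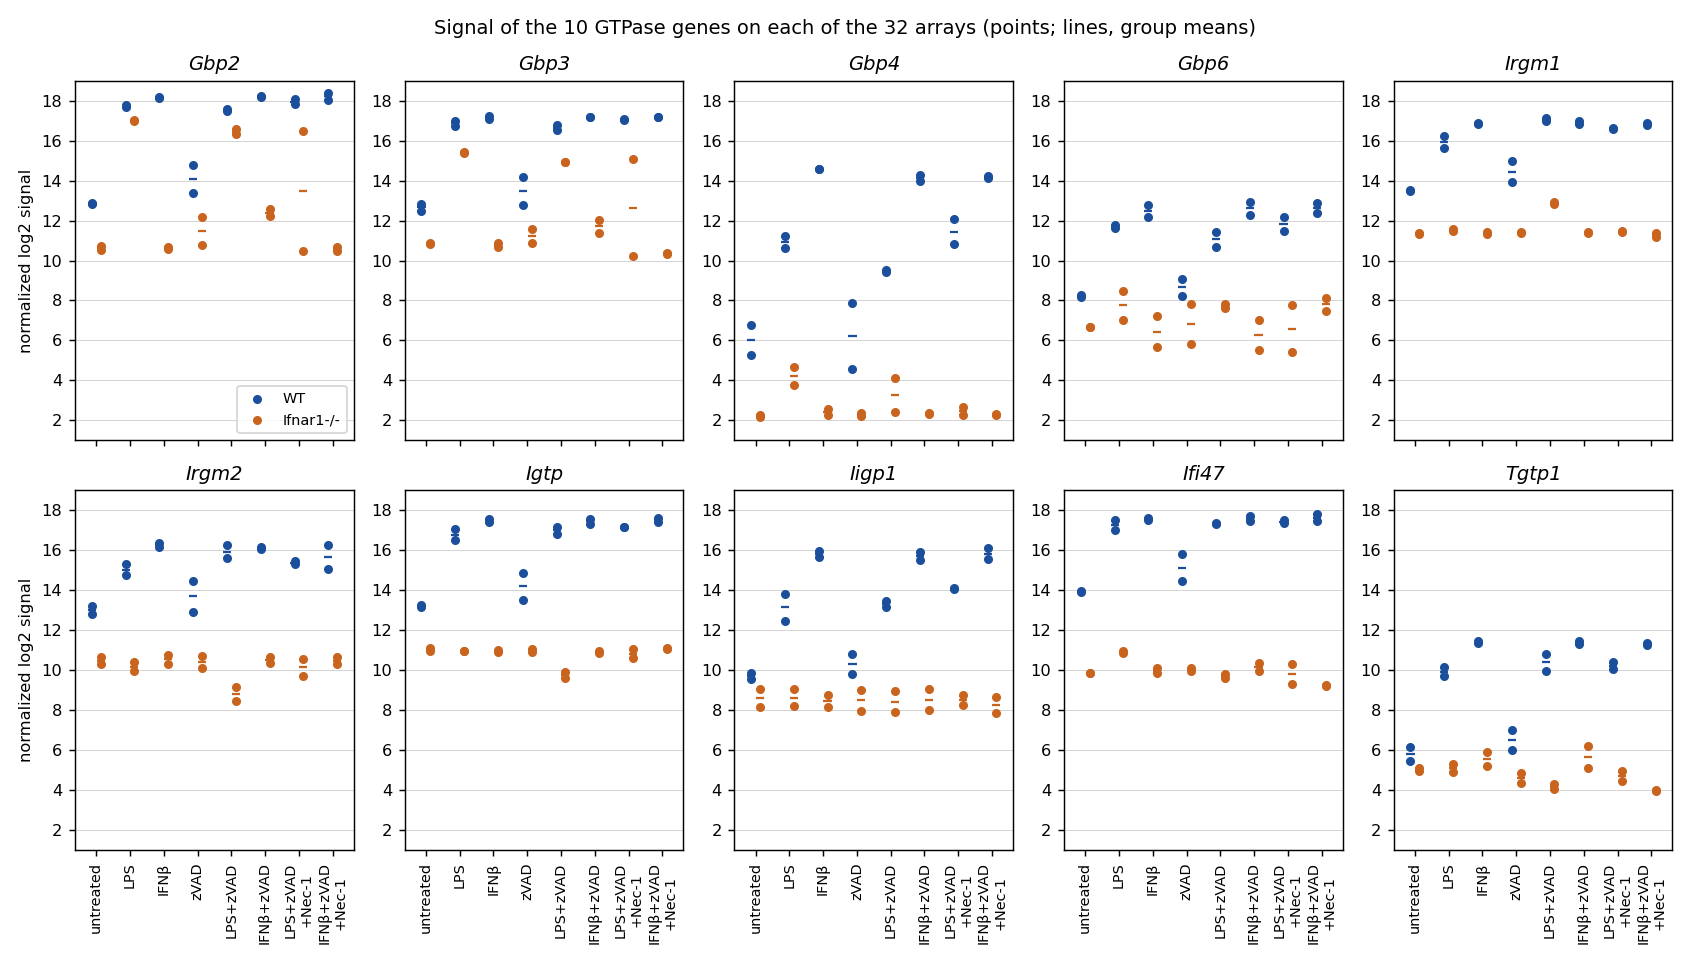
Normalized log2 signal (y axis) of the 10 genes in each of the 8 treatments (x axis) for WT (blue) and Ifnar1-/- (orange) BMDMs. Each point is 1 array, 2 per group, and the short lines are group means. WT cells are high with every treatment that contains LPS or IFNβ, while with LPS the Ifnar1-/- arrays are at 16.98 and 17.05 in Gbp2 and at 15.40 and 15.44 in Gbp3.

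In WT BMDMs, LPS and IFNβ each raised all 10 GTPase genes. IFNβ increased them by 3.28 (Irgm2) to 8.58 log2 (Gbp4), with a median of 4.40 over the 10 genes, and LPS by 2.03 (Irgm2) to 4.93 log2 (Gbp4), with a median of 3.53. Across all genes tested, 14% were called higher with IFNβ and 16.7% with LPS (adjusted p under 0.05, limma). The 10 genes were higher than the untreated array on each WT slide taken alone, by at least 3.17 log2 with IFNβ and at least 1.56 log2 with LPS.

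Gbp2 was at 12.90 and 12.83 on the 2 untreated WT arrays, at 17.80 and 17.70 with LPS and at 18.21 and 18.16 with IFNβ. Both stimuli thus moved this gene far beyond the spread between arrays, 29.5-fold with LPS (adjusted p = 0.000992, limma) and 39.9-fold with IFNβ (adjusted p = 0.000598). Gbp3, its neighbour on chromosome 3, rose from 12.51 and 12.86 to 16.98 and 16.76 with LPS and to 17.12 and 17.24 with IFNβ. Gbp4, which lies in the GBP cluster on chromosome 5, was at 5.25 and 6.77 in untreated cells, at 10.64 and 11.24 with LPS and at 14.57 and 14.59 with IFNβ. Its 381-fold rise with IFNβ was the largest of the 10 genes. Gbp6 rose from 8.28 and 8.19 to 11.78 and 11.65 with LPS and to 12.17 and 12.77 with IFNβ.

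The regulatory IRGs rose with both stimuli as well. Irgm1 rose from 13.47 and 13.52 to 16.23 and 15.64 with LPS and to 16.92 and 16.82 with IFNβ, 5.42-fold and 10.4-fold. Igtp rose from 13.16 and 13.25 to 17.07 and 16.50 with LPS and to 17.58 and 17.42 with IFNβ. Irgm2 had the smallest rises, 4.09-fold with LPS (adjusted p = 0.00125, limma) and 9.71-fold with IFNβ (adjusted p = 1.56e-05), from 12.79 and 13.21 in untreated cells.

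Among the effector IRGs, Iigp1 was at 9.84 and 9.56 without treatment, at 13.83 and 12.46 with LPS and at 15.96 and 15.69 with IFNβ, a rise of 69.5-fold with the cytokine. Tgtp1 went from 6.14 and 5.45 to 10.16 and 9.68 with LPS and to 11.47 and 11.37 with IFNβ. Its probe also matches Tgtp2, a near-identical gene, so the signal cannot be assigned to either alone. Ifi47 rose from 13.95 and 13.90 to 17.50 and 17.01 with LPS and to 17.64 and 17.50 with IFNβ.

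Compared directly in WT cells, all 10 genes had lower means with LPS than with IFNβ, and 4 of them passed the test, where 11.7% of all genes were called lower. These were Gbp4 (-3.64 log2, adjusted p = 0.00129, limma), Iigp1 (-2.67, adjusted p = 0.00116), Tgtp1 (-1.50, adjusted p = 0.00749) and Irgm1 (-0.94, adjusted p = 0.00603). Irgm2 (-1.25, adjusted p = 0.0557) was called as well when the discordant Ifnar1-/- pair was left out (adjusted p = 0.0452). Without WT LPS replicate 2, only 2 of the 10 genes were called. Gbp2 and Gbp3 differed by -0.44 (95% interval -2.64 to 1.77) and -0.31 (-2.11 to 1.49), intervals too wide to say that the 2 stimuli gave equal levels.

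**Figure D3:**
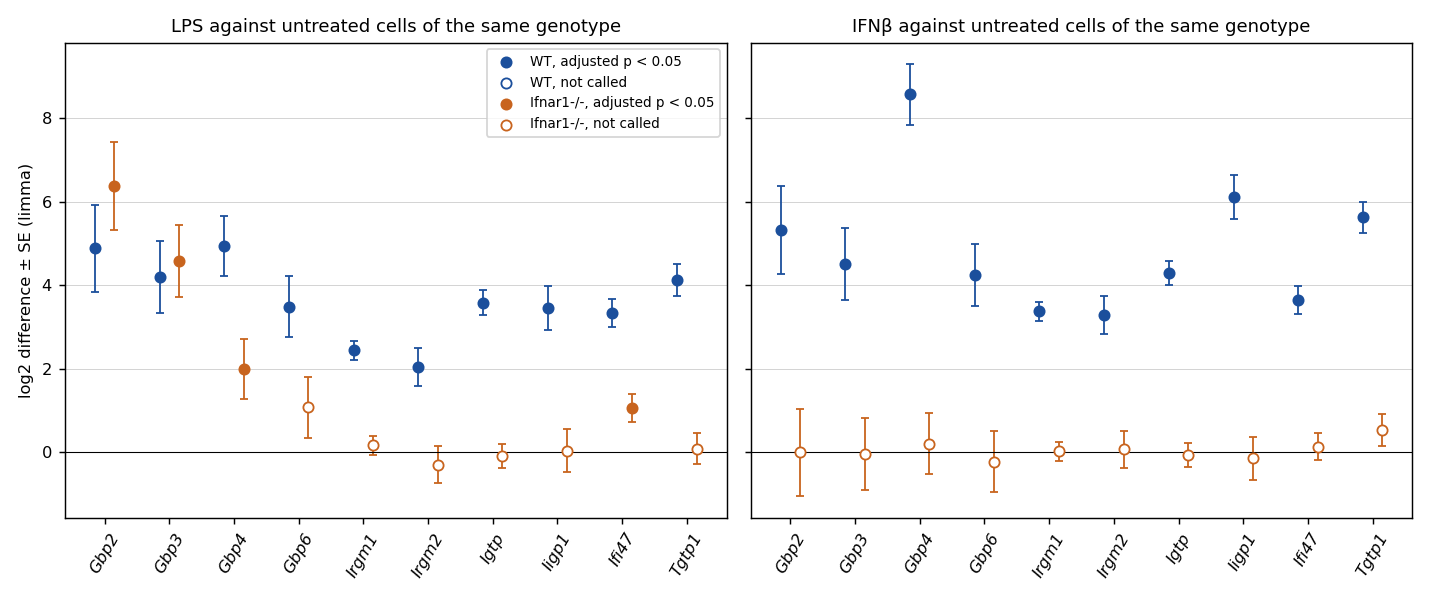
Log2 difference from untreated cells of the same genotype (y axis) with LPS (left) and IFNβ (right) for each gene (x axis) in WT (blue) and Ifnar1-/- (orange) BMDMs. Points are limma estimates from 2 arrays per group, bars are standard errors, and open points did not pass an adjusted p of 0.05. The Ifnar1-/- points with IFNβ all lie between -0.23 and 0.52, while with LPS those of Gbp2 and Gbp3 lie at 6.38 and 4.57.

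In Ifnar1-/- BMDMs, IFNβ changed none of the 10 genes. The differences from untreated cells ran from -0.23 to 0.52 log2 with no call by limma (0 genes, and 0 at an unadjusted p under 0.05), and 0% of all genes were called. The response of each of the 10 genes to IFNβ was called lower in Ifnar1-/- than in WT cells, where 8.73% of all genes were. Apart from Gbp4 the differences were -3.22 (Irgm2) to -6.27 log2 (Iigp1). The Gbp4 probe was well above background on none of the 16 Ifnar1-/- arrays and passed the filter on dim probes through the WT arrays alone, so its call gives no measured size, here and in every contrast of the 2 genotypes. Tgtp1 was well above background on 0 of 2 Ifnar1-/- arrays with IFNβ. For Igtp the Ifnar1-/- arrays were at 10.96 and 11.13 untreated and at 10.92 and 11.01 with IFNβ, and the difference between the genotypes' responses was -4.37 log2 (95% interval -5.23 to -3.51, adjusted p = 1.17e-06, limma).

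LPS divided the genes in Ifnar1-/- cells. Gbp2 and Gbp3 rose strongly, Ifi47 rose slightly, and the other IRGs had differences between -0.30 and 0.16 log2. In all, 4 of the 10 genes were called higher, where 11.5% of all genes were. Gbp2 was at 10.55 and 10.72 in untreated Ifnar1-/- cells and at 16.98 and 17.05 with LPS, an 83.3-fold rise (6.38 log2, SE 1.05, adjusted p = 0.000293, limma). Gbp3 was at 10.87 and 10.82 and reached 15.40 and 15.44, 23.8-fold higher (adjusted p = 0.000774). For both genes the treated arrays lay far above the untreated ones and the replicates lay close together. Without the discordant Ifnar1-/- LPS+zVAD+Nec-1 arrays the adjusted p was 1.41e-09 for Gbp2 and 1.07e-08 for Gbp3.

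Ifi47 went from 9.85 and 9.84 to 10.86 and 10.93, 2.07-fold higher (adjusted p = 0.0231), and lost its call when either array of either group was left out (adjusted p up to 0.106). Gbp4 was also called (adjusted p = 0.0497), but not without the discordant pair (adjusted p = 0.0521, limma). Its probe was not well above background on any of the 16 Ifnar1-/- arrays, so no fold is given. With 1 array of either group left out, 2 genes, Gbp2 and Gbp3, were called in place of 4. Gbp6 was at 6.70 and 6.66 untreated and at 7.03 and 8.47 with LPS (adjusted p = 0.334). Irgm1 was at 11.37 and 11.36 untreated and at 11.47 and 11.57 with LPS, a difference of 0.16 log2 (95% interval -0.32 to 0.64). Igtp was at 10.96 and 10.93 with LPS, Irgm2 at 9.96 and 10.39, Iigp1 at 9.03 and 8.20 and Tgtp1 at 4.91 and 5.27. None of these 5 IRGs differed from untreated cells by the test.

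The response to LPS differed between the genotypes for 6 of the 10 genes, all IRGs and all lower in Ifnar1-/- cells, where 3.76% of all genes were called lower. The differences were -4.04 log2 for Tgtp1 (adjusted p = 0.000129, limma), -3.68 for Igtp (adjusted p = 2.67e-05), -3.41 for Iigp1 (adjusted p = 0.00757), -2.34 for Irgm2 (adjusted p = 0.0305), -2.28 for Ifi47 (adjusted p = 0.00484) and -2.28 for Irgm1 (adjusted p = 0.000284). The call for Irgm2 was lost in 7 of 8 fits that left out 1 array, and that for Iigp1 in 2 of 8, with adjusted p up to 0.152 and 0.0606, both highest without WT LPS replicate 1. Tgtp1 was well above background on 1 of 2 Ifnar1-/- arrays with LPS, so the size of its difference is uncertain. For the GBPs the difference was not called. For Gbp4 (adjusted p = 0.0919) no size is given, because its probe was well above background on none of the Ifnar1-/- arrays. Gbp6 had a difference of -2.41 log2 (adjusted p = 0.192), whereas Gbp2 had a difference of 1.50 (95% interval -1.62 to 4.62) and Gbp3 of 0.38 (-2.16 to 2.93). Without the discordant pair the adjusted p for Gbp2 was 0.0796.

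Other GBPs were measured on both chromosomes. Gbp2b, Gbp5 and Gbp7, whose probes lie on chromosome 3 with those of Gbp2 and Gbp3, rose with LPS in Ifnar1-/- cells, with a 95% interval of 2.66 to 5.34 log2 for Gbp2b (adjusted p = 0.000228, limma), by 8.27 log2 for Gbp5 (adjusted p = 0.000117) and by 4.99 log2 for Gbp7 (adjusted p = 5.74e-05). Gbp9, Gbp10 and Gbp11, on chromosome 5 with Gbp4 and Gbp6, had differences of -0.64, 0.49 and -0.43 log2, none of which was called. On chromosome 5, however, Gbp4 was called with LPS in Ifnar1-/- cells at levels below background, and a second Gbp6 probe, which also matches Gbp10, rose. Gbp2b, Gbp5, Gbp7, Gbp9, Gbp10 and Gbp11 all rose with LPS in WT cells, by 2.06 (Gbp10, whose probe also matches Gbp6) to 6.05 log2 (Gbp5).

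Several genes were measured by more than 1 probe, 13 probes in all, and each of the 13 passed the filter. For Gbp6 the 2 probes disagreed in Ifnar1-/- cells. The main probe (chr5:105700056-105700115 in mm9) was not called with LPS, whereas the second (chr5:105702128-105702187), which also matches Gbp10, was at 4.22 and 2.48 untreated and at 8.14 and 8.47 with LPS, a difference of 4.96 log2 (adjusted p = 0.0013). This probe was well above background on 1 of 2 untreated arrays and on 2 of 2 with LPS, so the size of its rise is uncertain. With the second probe in place of the main one, the LPS responses of the genotypes differed by -0.71 log2 (adjusted p = 0.884). The second probe of Irgm1 gave the same calls as the main one with LPS and IFNβ in both genotypes. The second probe of Iigp1 did so in WT cells. For Iigp1 the second probe rose by 7.98 log2 with IFNβ in WT cells, against 6.12 with the main probe. In untreated cells the second probes of Gbp6 and Iigp1 were called lower in Ifnar1-/- than in WT cells (adjusted p = 0.00889 and 4.1e-05), unlike the main ones (adjusted p = 0.228 and 0.223). On the Ifnar1-/- arrays the second Iigp1 probe was not well above background, and it passed the filter (16 of 32 arrays) through the WT arrays alone. Its lack of a call in Ifnar1-/- cells therefore cannot back the main probe, and its difference between the genotypes has no measured size.

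Without any treatment, the 10 genes had lower means in Ifnar1-/- than in WT BMDMs, with differences of -0.79 (Tgtp1) to -4.08 log2 (Ifi47). The difference passed the test for 5 of 10 genes, where 3.43% of all genes were called lower, and 1 of the 5, Gbp4, had passed the filter through WT arrays alone. Ifi47 was at 13.95 and 13.90 in WT and at 9.85 and 9.84 in Ifnar1-/- cells, 16.9-fold lower (adjusted p = 1.3e-07, limma). Irgm1 was at 13.47 and 13.52 against 11.37 and 11.36 (adjusted p = 5.36e-06), Igtp at 13.16 and 13.25 against 10.96 and 11.13 (adjusted p = 7.47e-05), and Irgm2 at 12.79 and 13.21 against 10.28 and 10.67 (adjusted p = 0.00122). In these genes all the Ifnar1-/- arrays were below all the WT arrays. Gbp4 was well above background on the 2 WT arrays and on none of the Ifnar1-/- arrays, at least 3.56-fold lower (adjusted p = 0.00212). It was not called under the normexp background correction (adjusted p = 0.136).

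Gbp2 and Gbp3, at 10.55 to 10.87 in untreated Ifnar1-/- cells and 12.51 to 12.90 in WT cells, were 4.69-fold and 3.57-fold lower but were not called (adjusted p = 0.226 and 0.223). Without the discordant pair they were, with adjusted p of 0.000538 and 0.000851. The genotypes are on different slides, so slide and genotype cannot be told apart here. Markers of other cell types also differed by genotype. The log2 of the summed signals of 8 neutrophil markers ranged from 13.51 to 15.54 on WT and from 15.61 to 16.78 on Ifnar1-/- arrays. That of 5 fibroblast markers ranged from 8.77 to 10.38 and from 10.88 to 12.62. The brightest markers weigh most in such a sum. S100a9 alone ran from 10.01 to 14.54 on WT and from 14.90 to 15.98 on Ifnar1-/- arrays. Of the neutrophil markers 6 were above background on all 32 arrays, and of the fibroblast markers 4 were, with Pdgfra above background on 0 of 32. The neutrophil markers did not all move one way. Ly6g ran from 6.81 to 12.31 on WT and from 2.75 to 5.14 on Ifnar1-/- arrays, and of 7 neutrophil markers tested in untreated cells 1 was called higher and 1 lower in Ifnar1-/- cells. Of 4 fibroblast markers tested in untreated cells 3 were called higher and 0 lower in Ifnar1-/- cells, where 5.69% of all genes were higher and 3.43% lower. The part of these markers in the difference was not tested, and in a bulk sample fewer cells of a type and less RNA per cell cannot be told apart.

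zVAD alone changed none of the 10 genes by limma's adjusted p in either genotype. In WT cells all 10 means were higher than in untreated cells, by 0.21 to 1.24 log2, with 3 genes at an unadjusted p under 0.05, and 0.00654% of all genes (1 gene) were called. The rise lay on 1 slide. On the replicate 2 slide the 10 genes were 0.87 to 1.98 log2 above the untreated array, and on the replicate 1 slide -0.66 to 0.50, with 6 of 10 above. Without WT zVAD replicate 1, 3 genes were called. In Ifnar1-/- cells the differences ran from -0.41 to 0.86 log2, with 0 genes at an unadjusted p under 0.05 and 0% of all genes called. The difference between the genotypes' responses to zVAD was called for 0 genes (3 had an unadjusted p under 0.05), with 0% of all genes called.

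In WT cells the 10 genes were also all called higher than in untreated cells when inhibitors were present. With LPS+zVAD their median was 3.61 log2, where 18.6% of all genes were called higher, and with Nec-1 as well it was 4.17 log2, where 16.4% were. With IFNβ+zVAD the median was 4.45 log2, where 14.8% were called higher, and with Nec-1 as well it was also 4.45 log2, where 13.7% were. Adding zVAD to LPS changed only Irgm1 among the 10 genes, which went from 16.23 and 15.64 to 17.02 and 17.16 (1.16 log2, adjusted p = 0.000607, limma), although 35.4% of all genes were called in this comparison. With the slide as a replicate block, 2 genes were called higher, Irgm1 and Irgm2. The 35.4% of all genes is the share in the fit without that block. Adding zVAD to IFNβ changed 0 of the 10 genes (0 had an unadjusted p under 0.05), with 0% of all genes called.

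Adding Nec-1 to LPS+zVAD in WT cells raised 1 gene, Gbp4, from 9.51 and 9.44 to 10.83 and 12.06 (1.97 log2, adjusted p = 0.047), where 29.5% of all genes were called in either direction. The call was lost without either LPS+zVAD array or without LPS+zVAD+Nec-1 replicate 2 (adjusted p up to 0.334). The second Irgm1 probe was called lower (-0.92 log2, adjusted p = 0.0221), unlike the main one. Adding Nec-1 to IFNβ+zVAD in WT cells changed 0 of the 10 genes (0 had an unadjusted p under 0.05), with 0% of all genes called.

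In Ifnar1-/- cells treated with LPS+zVAD, IRGs were called in both directions. Relative to untreated Ifnar1-/- cells, Gbp2 (16.33 and 16.58) and Gbp3 (14.96 and 14.92) rose by 5.82 and 4.10 log2, and Irgm1 rose by 1.53 log2, while Irgm2 fell by 1.69 log2 (adjusted p = 0.00835, limma) and Igtp fell by 1.30 log2 (adjusted p = 0.00244). These 5 of 10 genes stand against 29.5% of all genes called in either direction. By direction, 3 of the 10 were called higher and 2 lower, where 11.5% of all genes were higher and 18.1% lower. The count of falls is thus near the share over all genes. Irgm1 was at 12.93 and 12.85 and so lay above the 14 other Ifnar1-/- arrays, which were at 11.57 or lower. Igtp, at 9.60 and 9.88, and Irgm2, at 8.45 and 9.12, lay below the 14 other Ifnar1-/- arrays. The second Gbp6 probe, which also matches Gbp10, was called higher (3.85 log2, adjusted p = 0.00687, limma), unlike the main one (adjusted p = 0.313). It was well above background on 1 of 2 untreated Ifnar1-/- arrays, so the size of its rise is uncertain.

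Adding zVAD to LPS in Ifnar1-/- cells changed 3 of the 10 genes, Irgm1, Igtp and Ifi47, where 8.8% of all genes were called. Irgm1 rose by 1.37 log2 (SE 0.23, adjusted p = 0.000888), from 11.47 and 11.57, and its second probe rose by 1.36 log2, from 9.59 and 9.85 to 11.02 and 11.15 (adjusted p = 0.00613). Igtp fell by 1.20 log2 (adjusted p = 0.0132) and Ifi47, from 10.86 and 10.93 to 9.78 and 9.61, fell by 1.20 log2 (adjusted p = 0.028). Irgm2 differed by -1.38 log2 (adjusted p = 0.0636, limma) and was called without the discordant pair (adjusted p = 0.0476). With 1 array left out, the call for Igtp was kept in 1 of 4 fits and that for Ifi47 in 0 of 4, with adjusted p up to 0.156 and 0.152, while that for Irgm1 was kept in 4 of 4.

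The effect of zVAD added to LPS was then compared between the genotypes, a comparison chosen after these values were seen. It called 0 of the 10 genes (4 had an unadjusted p under 0.05), with 3.92% of all genes called. The differences were -2.28 log2 for Irgm2 (adjusted p = 0.052), -1.42 for Igtp (adjusted p = 0.059) and 0.21 for Irgm1 (95% interval -0.47 to 0.89). Without the discordant pair Irgm2 and Igtp were called lower (adjusted p = 0.0374 and 0.0449, limma). With the slide as a replicate block, 2 genes were called lower, Irgm2 and Igtp. The 3.92% of all genes is the share in the main fit, with all arrays and no block. Compared with WT, the Ifnar1-/- response to LPS+zVAD as a whole was lower for 6 genes, where 4.95% of all genes were called lower. These were Tgtp1 (-5.45 log2), Igtp (-5.10), Irgm2 (-4.61), Iigp1 (-3.81), Ifi47 (-3.57) and Irgm1 (-2.07). Tgtp1 was well above background on 0 of 2 Ifnar1-/- arrays with LPS+zVAD, so its value is no measured size. Gbp2 and Gbp3 had differences of 1.13 and 0.12 log2 and were not called.

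**Figure D4:**
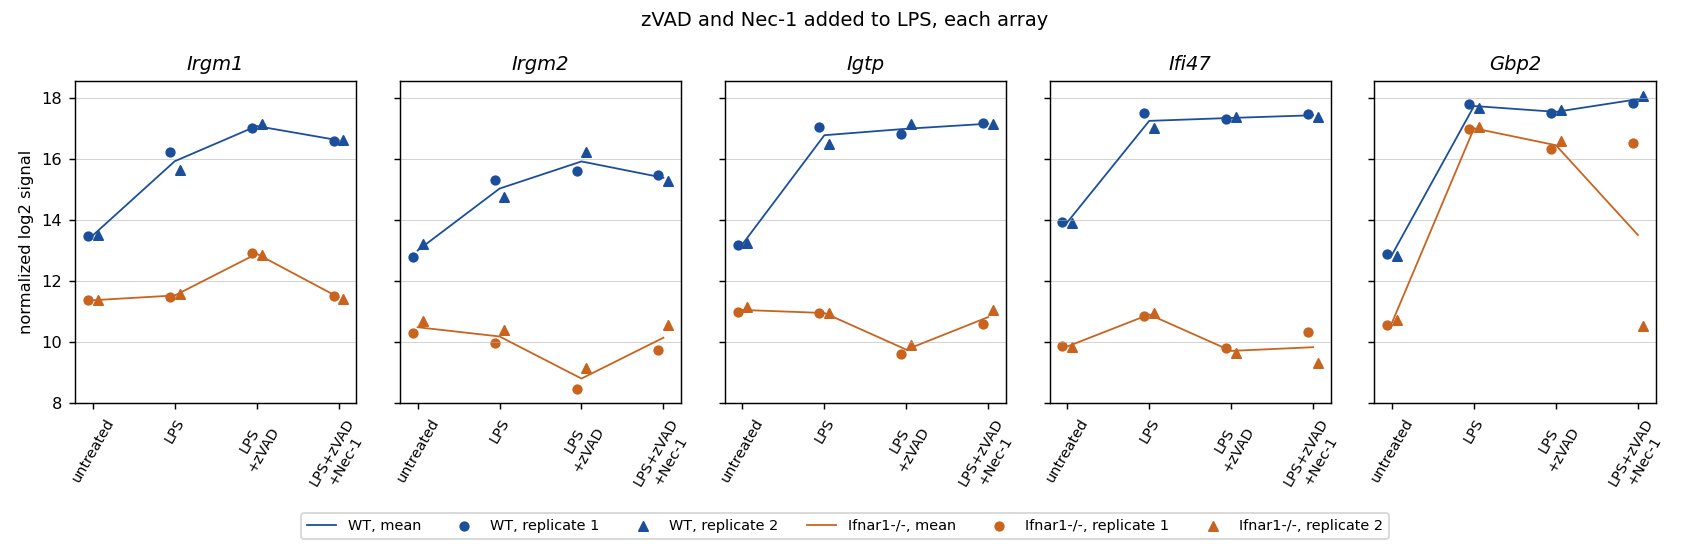
Normalized log2 signal (y axis) of Irgm1, Irgm2, Igtp, Ifi47 and Gbp2 in untreated cells and with LPS, LPS+zVAD and LPS+zVAD+Nec-1 (x axis). Circles are replicate 1, triangles replicate 2 and lines join the means of WT (blue) and Ifnar1-/- (orange) BMDMs. In Ifnar1-/- cells Irgm1 is highest and Irgm2 and Igtp are lowest with LPS+zVAD, and Gbp2 shows the discordant pair with LPS+zVAD+Nec-1, at 16.52 and 10.50.

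Nec-1 added to LPS+zVAD in Ifnar1-/- cells was tested against the group that holds the discordant pair, and 19.6% of all genes were called. Irgm1 fell by 1.43 log2 (adjusted p = 0.000417), to 11.51 and 11.41, and its second probe fell by 1.68 log2 (adjusted p = 0.0008). On replicate 1, where Gbp2 was at 16.52 and so near its level with LPS, Irgm1 was at 11.51, next to 11.47 with LPS alone. Irgm2 and Igtp rose by 1.34 and 1.07 log2 (adjusted p = 0.0426 and 0.015), but neither was called without the library labelled replicate 2, when Irgm1 was the 1 gene still called. With the slide as a replicate block, 5 of the 10 genes were called. The 19.6% of all genes is the share in the fit without that block.

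Relative to untreated Ifnar1-/- cells, LPS+zVAD+Nec-1 changed 0 of the 10 genes (2 had an unadjusted p under 0.05), with 1.36% of all genes called. Without the library labelled replicate 2, 2 genes were called higher. The LPS+zVAD+Nec-1 responses of the genotypes differed for 8 genes, all lower in Ifnar1-/- cells, where 7.39% of all genes were called lower. With 1 array left out this count ranged from 7 to 10.

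In Ifnar1-/- cells treated with IFNβ and inhibitors few members moved. IFNβ+zVAD changed 0 of the 10 genes against untreated cells, with 0 at an unadjusted p under 0.05 and 0.00654% of all genes called, and 0 against IFNβ alone, again with 0 at an unadjusted p under 0.05 and 0.00654% called. Gbp2 was nevertheless at 12.60 and 12.22 with IFNβ+zVAD and at 12.19 and 10.79 with zVAD, where the untreated arrays were at 10.55 and 10.72 and the IFNβ arrays at 10.58 and 10.67. The difference of IFNβ+zVAD from untreated cells was 1.78 log2 (95% interval -0.43 to 3.98, adjusted p = 1). Without the discordant pair alone Gbp2 was not called against untreated cells or against IFNβ (adjusted p = 0.093 and 0.131, limma). In a fit without the 2 groups whose arrays stood apart, a setting chosen after seeing the data, Gbp2 was called higher in both comparisons, the 1 gene of the 10.

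IFNβ+zVAD+Nec-1 changed 0 of the 10 genes against untreated Ifnar1-/- cells, with 1 at an unadjusted p under 0.05 and 1.81% of all genes called. Against IFNβ+zVAD it changed 1, Tgtp1, where 1.59% of all genes were called. Tgtp1 was at 6.18 and 5.11 with IFNβ+zVAD, where 1 of 2 arrays was well above background. With Nec-1 as well it was at 3.95 and 3.98, where 0 of 2 were, so Tgtp1 has a call (adjusted p = 0.0257, limma) but no measured size of change. Its call was lost in 3 of 4 fits with 1 array left out (adjusted p up to 0.49 over all alternatives). Without the discordant LPS+zVAD+Nec-1 pair, Gbp2 (-1.83 log2, adjusted p = 0.00801) and Gbp3 (-1.36, adjusted p = 0.0225) were called as well. The genotypes' responses to IFNβ+zVAD differed for 9 genes and those to IFNβ+zVAD+Nec-1 for 10, all lower in Ifnar1-/- cells, where 8.67% and 8.49% of all genes were called lower. Gbp2 was the exception with IFNβ+zVAD (-3.60 log2, adjusted p = 0.0966), and it too was called without the discordant pair (adjusted p = 8.49e-05).

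Ordered by group mean, the 3 WT groups that received IFNβ were the top 3 for 8 of the 10 genes, and neighbours within these 3 differed by less than the pooled SD of the gene. For 5 of these 8, Gbp2, Gbp3, Gbp6, Igtp and Ifi47, the step from the last of the IFNβ groups to the next group was also below that SD. Irgm1 and Irgm2 were the exceptions, with WT LPS+zVAD in first place for Irgm1 (17.09, a lead of 0.18 against a pooled SD of 0.22) and among the top 3 for Irgm2 (15.92). For 8 of the 10 genes the Ifnar1-/- groups filled the last 8 places, after untreated WT cells. For Gbp2 and Gbp3 the Ifnar1-/- LPS and LPS+zVAD groups came before the untreated and zVAD-treated WT groups. Over the 16 group means the correlation between members ran from 0.70 (Gbp2 and Irgm2) to 0.99 (Gbp2 and Gbp3), as a description of groups that share slides and treatments.

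Of genes outside the 10, those most like their mean standardized profile over the 16 groups were Nmi (r = 0.997), Ogfr (0.995), Trim30a (0.994), Parp10 (0.994) and Dtx3l (0.993), again as a description. A list of 25 further GBP and IRG symbols and relatives had 15 genes tested. For these and the lists that follow, the shares over all genes with LPS were 16.7% higher and 25.5% lower in WT cells and 11.5% higher and 14.5% lower in Ifnar1-/- cells. LPS raised 12 of the 15 in WT and 4 in Ifnar1-/- cells, where it lowered 3. IFNβ raised 14 and lowered 1 in WT cells, where 14% of all genes were higher and 22.2% lower, and changed 0 in Ifnar1-/- cells, where 0% of all genes were called. In untreated cells 7 of the 15 were lower in Ifnar1-/- cells and 0 were higher, where 3.43% of all genes were lower and 5.69% higher. The median of the 15 genes with LPS was 2.68 log2 in WT and 0.11 in Ifnar1-/- cells.

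Of 20 interferon signalling genes tested, LPS raised 12 and lowered 1 in WT cells, and raised 8 and lowered 1 in Ifnar1-/- cells. Ifnb1, which encodes IFNβ itself, was at 3.03 and 2.59 in untreated Ifnar1-/- cells, not well above background, and at 11.50 and 11.65 with LPS. Irf1, whose product binds sites of the ISRE type, rose with LPS by 1.78 log2 in Ifnar1-/- cells (adjusted p = 0.000929, limma) and by 0.96 log2 in WT cells (adjusted p = 0.0303). Irf7 rose by 3.04 log2 in WT cells (adjusted p = 1.62e-05) and had a difference of -0.83 log2 in Ifnar1-/- cells (adjusted p = 0.173), and Stat2 rose by 1.61 log2 in WT cells and had a difference of -0.54 log2 in Ifnar1-/- cells. In untreated Ifnar1-/- cells Irf9 and Stat2 differed from WT cells by -2.86 and -2.28 log2 (adjusted p = 4.38e-07 and 0.000545).

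Of 10 genes that act with or after the GBPs, LPS raised 7 in WT and 5 in Ifnar1-/- cells. Casp4, which encodes caspase-11, rose by 2.99 log2 in WT and by 1.98 log2 in Ifnar1-/- cells (adjusted p = 7.41e-05 and 0.00524). Rnf213, a large ubiquitin ligase that coats intracellular bacteria, rose by 2.78 log2 when zVAD was added to LPS in Ifnar1-/- cells (adjusted p = 4.02e-06). That step raised 1 and lowered 1 of the 10 in Ifnar1-/- cells and raised 2 and lowered 4 in WT cells, where 8.8% and 35.4% of all genes were called in either direction. Of 13 genes of the ATG8 conjugation machinery, which loads IRGs and GBPs onto vacuoles, LPS raised 2 and lowered 8 in WT cells, and raised 0 and lowered 6 in Ifnar1-/- cells. All 8 genes of an NF-κB reference list, among them Tnf and Il6, rose with LPS in both genotypes.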

How the data were processed

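Total RNA of 32 BMDM samples was labelled with Cy3 and hybridized to Agilent arrays. The deposited intensities are the scanner software's processed signals (Feature Extraction), background-subtracted and detrended by the authors' scanner settings, with dim values replaced by a surrogate; per the labels, limma was used for analysis, with no version given. The authors' table of normalized log2 values was used as an alternative. The intensities were taken to log2, outlier spots (130 to 499 per array) were dropped, and arrays were quantile-normalized. Of the probes with a symbol, 20677 that were well above background on at least 50% of arrays were kept, and each of 15287 genes was represented by its brightest probe. No spot was saturated (0 on each array), and the number of arrays limits the precision. Group means were fitted with limma 3.58.1 in R 4.3.3 (16 residual degrees of freedom), and p-values were adjusted by Benjamini-Hochberg over all genes of a comparison, with a threshold of 0.05. The code was tested on simulated data. The named genes are the 10 members, with counts for related lists and the 5 genes of most similar profile, and the members, lists and tests were chosen with earlier results of these data known. Alternatives covered scaling to the 75th percentile, normexp (offset 50), no filter, the mean of probes, the authors' values, slide blocks, smaller fits and each array left out. Replicate numbers mark slides. Deviations from group means correlated over genes in all 28 pairs of treatments within each genotype (0.31 to 0.67 in WT, 0.16 to 0.57 in Ifnar1-/-), so same-numbered arrays were treated as paired in the block fits. Probe coordinates are those of the files (mm9) and promoters those of RefSeq (GRCm38.p6).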

Additional observations from a re-analysis of the deposited data

Results flagged for a closer look

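The effect of a treatment differed between WT and Ifnar1-/- BMDMs by limma's test of the difference itself (Ifnar1-/- minus WT) for the following genes. With LPS the differences in log2 were -2.28 for Irgm1, -2.34 for Irgm2, -3.68 for Igtp, -3.41 for Iigp1, -2.28 for Ifi47 and -4.04 for Tgtp1. With IFNβ they were -5.33 for Gbp2, -4.55 for Gbp3, -4.48 for Gbp6, -3.36 for Irgm1, -3.22 for Irgm2, -4.37 for Igtp, -6.27 for Iigp1, -3.52 for Ifi47 and -5.10 for Tgtp1. The fitted value for Gbp4 with IFNβ was -8.38, which is no measured size, because its probe was well above background on none of the 16 Ifnar1-/- arrays and passed the filter through the WT arrays alone. With LPS+zVAD they were -2.07 for Irgm1, -4.61 for Irgm2, -5.10 for Igtp, -3.81 for Iigp1, -3.57 for Ifi47 and -5.45 for Tgtp1. Over all genes 3.76% were called lower with LPS, 8.73% with IFNβ and 4.95% with LPS+zVAD. The responses also differed for 9 genes with IFNβ+zVAD, 8 with LPS+zVAD+Nec-1 and 10 with IFNβ+zVAD+Nec-1. In these comparisons 8.67%, 7.39% and 8.49% of all genes were called lower. The 8 genes with LPS+zVAD+Nec-1 rest on the group that holds the discordant Ifnar1-/- pair. For Gbp4 the Ifnar1-/- side of each difference lies below background, as it does for Tgtp1 with IFNβ and with LPS+zVAD (0 of 2 arrays well above background).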

How the results depend on the processing

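Each of the 32 counts of called genes was recomputed under the alternatives, and 254 of 280 recomputed counts stayed within 1.5 times. Of 4400 values of single genes, 4227 kept their side of the threshold, 89 lost a call, 84 gained one and 0 reversed a call. With the 75th percentile scaling, 2 genes were called for zVAD added to LPS in WT, 2 for Nec-1 added to LPS+zVAD in WT, 5 for the same step in Ifnar1-/-, 0 for Nec-1 added to IFNβ+zVAD in Ifnar1-/- and 2 for the difference between genotypes in the effect of zVAD added to LPS. That scaling moved the share of higher calls over all genes from 75.1% to 58.2% in the last comparison and from 70.8% to 60.7% for the difference in response to LPS+zVAD. It moved the median of all genes for zVAD added to LPS in WT from -0.04 to 0.19 log2. With the slide as a replicate block the counts were 2, 5 and 2 for zVAD added to LPS in WT, Nec-1 added to LPS+zVAD in Ifnar1-/- and the difference in the effect of zVAD. The block changed no other count by over 1.5 times. Normexp gave 2 for zVAD added to LPS in WT and 0 for Nec-1 added to IFNβ+zVAD in Ifnar1-/-. No filter gave 0 and the mean of probes 2 for Nec-1 added to LPS+zVAD in WT. The authors' values gave 0 for Nec-1 added to IFNβ+zVAD in Ifnar1-/-. A fit of the compared groups alone gave 8 for the untreated genotypes, 0 for Nec-1 added to LPS+zVAD in WT and in Ifnar1-/-, 0 for Nec-1 added to IFNβ+zVAD in Ifnar1-/- and 1 for LPS against IFNβ in WT. With the discordant Ifnar1-/- pair left out the counts were 3 for Nec-1 added to IFNβ+zVAD in Ifnar1-/- and 2 for the difference in the effect of zVAD. Without these and the WT zVAD arrays, a setting chosen after seeing the data, they were 4 and 3, with 1 for IFNβ+zVAD in Ifnar1-/- against untreated and against IFNβ, 2 for zVAD added to LPS in WT and 2 for Nec-1 added to LPS+zVAD in WT. The cause of these shifts was not tested. Shares of all genes called are given in the Results for the main fit only.

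With 1 array left out, the counts ranged from 0 to 3 for zVAD in WT, from 2 to 2 for LPS in Ifnar1-/-, from 0 to 2 for LPS+zVAD+Nec-1 in Ifnar1-/-, from 1 to 2 for zVAD added to LPS in Ifnar1-/-, from 0 to 1 for Nec-1 added to LPS+zVAD in WT, from 1 to 6 for that step in Ifnar1-/-, from 0 to 1 for Nec-1 added to IFNβ+zVAD in Ifnar1-/-, from 2 to 4 for LPS against IFNβ in WT and from 0 to 2 for the difference in the effect of zVAD. The 10 calls for each of LPS and IFNβ in WT held in every fit. Where an arm was left with 1 array, that array was assumed to vary like the other groups. Gbp4 and Tgtp1 in Ifnar1-/- cells lie at or below background, which limits what their differences can show.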
